A study of Mus musculus with 8 samples.

Results

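Notch signalling was described here through 10 genes taken by name: the receptor genes Notch1, Notch2, Notch3 and Notch4, the ligand gene Jag1, the receptor-modifying enzyme gene Lfng, and the target and feedback genes Hes1, Hey1, Dtx1 and Nrarp. Of these 10 genes, 8 had a row among the 14268 rows of the deposited comparison. Expression of Hey1 and Dtx1 was not analysed here. RNA came from mouse fetal liver on embryonic day E14.5, from embryos of Flt3-Cre mice crossed to mTmG reporter mice. All embryos thus carried the same driver and reporter, and both fractions were lineage-negative, Kit+, Sca1+ and CD150+ by flow cytometry. The GFP+ fraction (4 libraries) held cells in which Cre, made under Flt3 control, had recombined the reporter at any point in their history. The Tomato+ fraction (4 libraries) held cells without that event. Whether libraries came from separate embryos, pools or days is not stated in the labels, so the authors' p-values may reflect technical spread only.

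Notch receptors are membrane proteins that are cut when a ligand of the Delta or Jagged family on a neighbouring cell binds them. The freed intracellular domain enters the nucleus, joins the DNA-binding protein RBPJ and a Mastermind co-activator, and switches on genes such as those of the Hes and Hey repressors. In blood development the pathway is known for the emergence of stem cells from endothelium and for the commitment of lymphoid progenitors to the T lineage, in which Notch1 is the receptor required.

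Notch1 was the 1 member that rose in GFP+ cells, and none fell. Its level in the authors' deposited table was 2384 normalized counts in GFP+ against 1213 in Tomato+, where a normalized count is a read count scaled between libraries by the authors and averaged over the 4 libraries of a fraction. The difference was 1.97-fold, a log2 of 0.98 (authors' DESeq comparison, adjusted p = 1.89e-11 over all rows, the authors' deposited table). Transcripts annotated on the opposite strand share 964 and 414 exon bases with Notch1, whose longest coding transcript has 9488 bases, and their reads may be counted in. The other 7 measured members did not pass an adjusted p of 0.05. Across all rows 7.49% passed, 4.86% as higher and 2.64% as lower in GFP+, so 1 call among 8 members is not far from the share of all genes. The members' log2 values were above 0 for 4 genes and below 0 for 4, with a median of 0.0034 against 0.0095 over all rows. Only means per fraction were at hand, so no value per library, SD or overlap of libraries can be given.

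**Figure D1:**
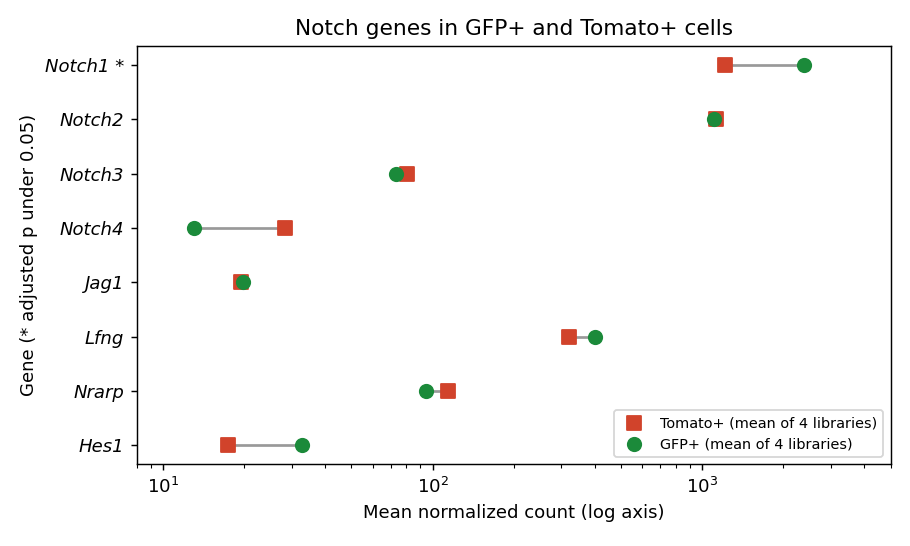
Mean normalized count of each measured Notch gene on a log axis, with a green circle for GFP+ and a red square for Tomato+ (means of 4 libraries, no error available). Notch1 lies at 2384 against 1213 and carries the asterisk of an adjusted p under 0.05, while the marks for Notch2 and Jag1 nearly coincide.

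The receptor genes did not move together. Notch2, a close relative of Notch1 that is known for its role in marginal zone B cells, had levels of 1109 in GFP+ against 1126 in Tomato+ in the authors' deposited table, a log2 difference of -0.02 (adjusted p = 0.965). The level of Notch3, known from vascular smooth muscle, was 73.0 in GFP+ against 80.2 in Tomato+ in the authors' deposited table, a log2 of -0.14 (adjusted p = 1). Notch4, a receptor gene mainly of endothelium, had the lowest levels of the receptors, 13.0 in GFP+ against 28.3 in Tomato+, and a log2 difference of -1.12 that did not pass (the authors' deposited table, adjusted p = 0.631). The mean was thus lower in GFP+ for each of these receptors, by very different amounts, and in none of them did the difference pass.

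To compare levels between genes, each mean was divided by the length of the gene's longest protein-coding transcript in GENCODE M21, which need not be the gene model the authors counted. On this per-kilobase scale, from means of the authors' deposited table, the order was Notch1, Notch2, Notch3 and Notch4 in both fractions. The level of Notch1 was 251 per kilobase in GFP+ against 128 in Tomato+, and that of Notch2 was 106 and 107, from means of the authors' deposited table. In Tomato+ cells the levels of Notch1 and Notch2 were thus close to each other, and without a spread per library it cannot be said whether they differed. Notch1 made up 68.3% of the summed receptor level per kilobase in GFP+ and 51.3% in Tomato+, and Notch2 28.7% and 43.0% in means of the authors' deposited table. Notch3 held 2.47% and 4.01% of that sum and Notch4 0.536% and 1.72%, from the same means of the authors' deposited table. Taken as deposited, without length, the ratio of Notch1 to Notch2 was 2.15 in GFP+ against 1.08 in Tomato+ in the authors' deposited table. This ratio is the same whichever way the fractions are scaled to each other.

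**Figure D2:**
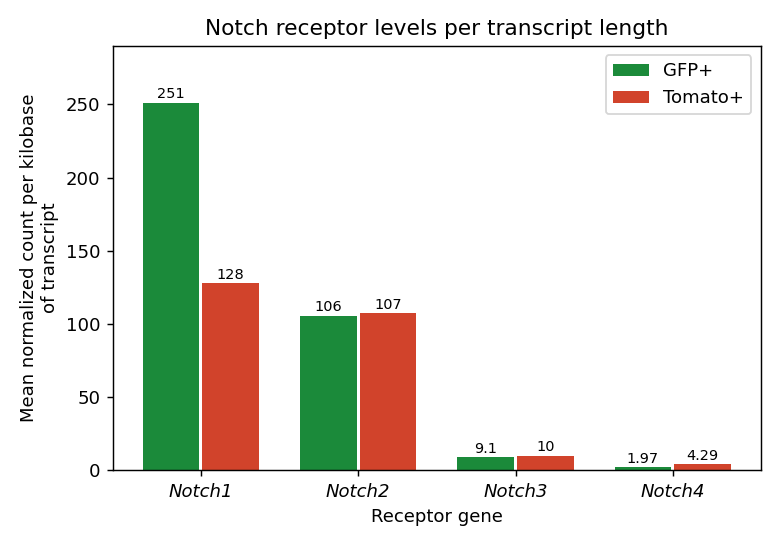
Mean normalized count per kilobase of transcript (vertical axis, from 0) of the 4 receptor genes, green for GFP+ and red for Tomato+, with each value printed above its bar. Notch1 stands at 251 against 128, Notch2 is level at 106 and 107, and Notch3 and Notch4 lie near the axis.

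Among all 14268 rows, the log2 value of Notch1 was higher than that of 95.4%, and its p-value held rank 74 from the smallest in the authors' deposited table. Of the 1409 rows with an overall mean from 1000 to 3000 normalized counts, 11 had a log2 at least as high as Notch1, itself included, in the authors' deposited table. Notch2, with a mean in the same range, lay near the middle of all rows, with 46.0% below it in the authors' deposited table. In the band from 500 to 3000 normalized counts, all 47 rows with an absolute log2 of at least 0.9 were called in the authors' deposited table. Calls did not follow the size of the difference alone, since the smallest absolute log2 called in that band was 0.024.

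**Figure D3:**
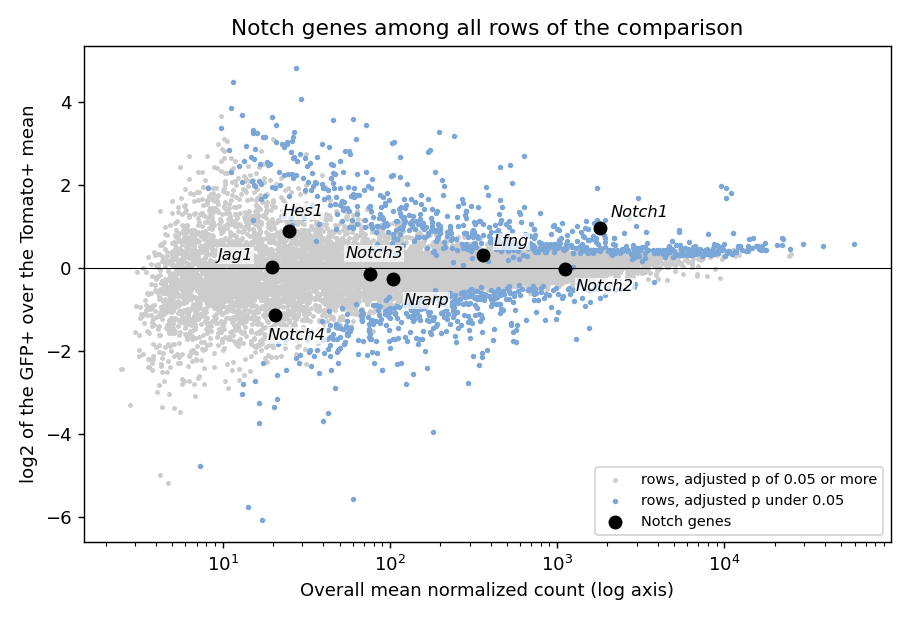
Log2 of the GFP+ over the Tomato+ mean (vertical axis) against the overall mean normalized count (horizontal log axis) for all 14268 rows, blue where the authors' adjusted p is under 0.05, with the 8 measured Notch genes in black. Notch1 lies above most rows of its level, while Hes1, Jag1 and Notch4 lie at means of 19.7 to 25.1, where the cloud is wide.

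Ligand genes had overall means of at most 180 normalized counts in the authors' deposited table. Jag1, which encodes a ligand of the Jagged family, had levels of 19.9 in GFP+ against 19.5 in Tomato+ in the authors' deposited table, a log2 difference of 0.03 that turns negative when the fractions are scaled to the same total or centred on the median gene. That difference did not pass (the authors' deposited table, adjusted p = 0.922). Of 5 ligand genes listed, 3 had a row, and 0 passed an adjusted p of 0.05 by the authors' DESeq comparison. 1 had an unadjusted p under 0.05. With 7.49% of all rows called, 0 of 3 says little about ligand genes. Jag2, named here after its values were seen, had the highest level of the 3, at 29.5 per kilobase in GFP+ against 40.9 in Tomato+ from means of the authors' deposited table. Its log2 difference was -0.47 (the authors' deposited table, adjusted p = 0.742). Dll4, a ligand gene of arterial endothelium and thymic epithelium, was at 6.84 normalized counts in GFP+ against 27.0 in Tomato+, a log2 of -1.98 that did not pass (the authors' deposited table, adjusted p = 0.0762). These are levels in the sorted cells themselves, and ligands on their neighbours were not measured.

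Lfng encodes lunatic fringe, which adds a sugar to the receptors and so changes which ligands they answer to. Its level was 399 in GFP+ against 320 in Tomato+ in the authors' deposited table, a log2 difference of 0.32 (adjusted p = 0.499). Of 5 measured glycosyltransferase genes 0 passed by the authors' DESeq comparison, and 0 had an unadjusted p under 0.05. With 7.49% of all rows called, 0 of 5 is not far from the share of all genes. Per kilobase, the related enzyme gene Mfng had the highest level of the 3 fringe genes, 615 in GFP+ against 592 in Tomato+ from means of the authors' deposited table, and was named after its values were seen. Lfng followed with 173 and 139 per kilobase, and Rfng with 121 and 135, from means of the authors' deposited table. Lfng thus made up 19.1% of the fringe sum per kilobase in GFP+ and 16.0% in Tomato+. The log2 differences of Mfng and Rfng were 0.05, which turns negative with equal totals, and -0.16, and neither passed, per the authors' deposited table.

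Neither Hes1 nor Nrarp, the measured target and feedback genes among the members, passed, and nor did the other measured Hes genes. Hes1, a repressor of transcription and a direct target of Notch in many tissues, had levels of 32.8 in GFP+ against 17.5 in Tomato+ in the authors' deposited table, a log2 difference of 0.91. Its p-value was 0.0285 before and 0.216 after adjustment over all rows in the authors' deposited table. Nrarp, a feedback inhibitor that is itself induced by Notch and destabilises the active complex, had levels of 94.4 in GFP+ against 114 in Tomato+ in the authors' deposited table, a log2 of -0.27 (adjusted p = 0.695). An antisense transcript overlaps 2051 exon bases of Nrarp, so its value is uncertain. Hes1 was thus higher and Nrarp lower in mean in GFP+ cells, and neither difference can be told from none by the authors' test. Of 9 listed Hes and Hey genes 3 had a row. Hes6, of neural and other progenitors, had a log2 of 0.34 and Hes5 of -0.0062 in the authors' deposited table, with adjusted p = 0.235 and 1, and Hes5 was named after its values were seen.

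Low levels limit what can be said of Hes1, Notch4 and Jag1. The authors' deposited table holds 1351 rows with an overall mean from 15 to 35 normalized counts, of which 80, or 5.92%, were called. The smallest absolute log2 among those calls was 1.04, and of 407 rows in that band with an absolute log2 of at least 0.9, 80 were called in the authors' deposited table. The difference of Hes1 was thus smaller than any called at this level, and that of Notch4 was only slightly above the smallest called.

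Promoter sequence is shown for 2 members. Lfng was the 1 member of the 8 searched with a match to the core motif of RBPJ, and Notch1 was the member that rose. RefSeq promoter entries of build GRCm38.p6 were found for 8 of the 10 members. Hes1 and Hey1 had no entry and were not searched, so nothing is said of their promoters. The 250 bases before each annotated start were searched on both strands for TGGGAA, the core that RBPJ binds. Its longer form GTGGGAA, which contains it, was searched as well. Among the 32851 promoters listed there, a share of 21.6% held TGGGAA and 5.42% held GTGGGAA. Lfng held TGGGAA 2 times, from 108 to 103 bases before the start on the strand of the gene and from 135 to 130 bases before it on the opposite strand. The match nearer to the start was also GTGGGAA. The sequences run 5′ to 3′ on the strand of the gene, with TGGGAA or its reverse complement in capitals. Lfng lies on the plus strand at chr5:140607091-140607340 and Notch1 on the minus strand at chr2:26503823-26504072.
Lfng: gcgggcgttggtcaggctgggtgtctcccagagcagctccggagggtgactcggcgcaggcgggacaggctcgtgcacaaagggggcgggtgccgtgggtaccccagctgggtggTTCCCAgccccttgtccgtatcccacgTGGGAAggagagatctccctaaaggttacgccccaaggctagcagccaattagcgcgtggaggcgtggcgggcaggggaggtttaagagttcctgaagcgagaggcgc
Notch1: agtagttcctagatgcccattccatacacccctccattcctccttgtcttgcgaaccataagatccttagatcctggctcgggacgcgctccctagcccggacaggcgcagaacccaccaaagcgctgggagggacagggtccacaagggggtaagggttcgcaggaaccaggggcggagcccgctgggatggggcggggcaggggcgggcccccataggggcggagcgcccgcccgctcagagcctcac
Both windows had a GC content of 66.0%, against a median of 52.4% over all promoters of the table. They held 18 CG pairs in Lfng and 16 in Notch1, against a median of 6. A match to letters is not a bound site, and binding of RBPJ was not measured.

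The wider pathway was read from a list of 77 genes sorted by role, of which 63 had a row. Of these 63 genes, 8 rose and 2 fell in GFP+, which is 15.9% of them against the 7.49% of all rows. Their median log2 was -0.04 against 0.0095 over all rows. Of the calls, 4 rises came from genes reported as Notch targets in T lineage or proliferating cells. The same role held 1 fall, that of Gata2, a stem cell regulator. Most genes of this role have other inputs as well. Without that role, an omission chosen after seeing the data, 4 of 56 genes rose and 1 fell. That is 8.93% of them against the 7.49% of all rows. The list without that role thus passed at about the rate of all genes, and the whole list at a higher one. Several genes of the left-out role were already known to differ in these data when the list was written. The higher share of the whole list is thus no independent evidence about the pathway. Whether either share differs from that of all genes was not tested.

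For the central steps, 0 or 1 call among 9 genes is not far from the 7.49% of all rows that passed. Of 9 measured protease genes, which encode the enzymes that cut receptors and ligands, 0 passed by the authors' DESeq comparison, with 1 at an unadjusted p under 0.05. That gene was Furin, whose product cuts the receptor during its maturation, with a log2 of -0.45 (the authors' deposited table, adjusted p = 0.275). The level of Rbpj, named after its values were seen, was 842 in GFP+ against 838 in Tomato+ in the authors' deposited table, a log2 of 0.0068 that turns negative with equal totals or centring (adjusted p = 1). Maml3, of the Mastermind co-activators, was the 1 gene of 9 in the nuclear complex that passed. It rose from 333 in Tomato+ to 513 in GFP+, 1.54-fold (the authors' deposited table, adjusted p = 0.00822).

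Among nuclear co-repressors 1 of 9 passed, which is 11.1% against the 7.49% of all rows. Tle3, of the Groucho family that Hes proteins recruit, rose 1.46-fold, from 719 to 1051 (the authors' deposited table, adjusted p = 0.00151). Ubiquitin ligases and trafficking genes went both ways, with 1 rise and 1 fall among 13, or 15.4%. Dtx4, of the deltex ligase family to which the member Dtx1 belongs, rose 3.12-fold, from 47.9 to 149 (the authors' deposited table, adjusted p = 0.00681). Neurl3, of the neuralized family, fell 2.01-fold, from 633 in Tomato+ to 315 in GFP+ (the authors' deposited table, adjusted p = 1.98e-07). Dtx3, named after its values were seen, had a log2 of -0.59 and missed the threshold narrowly (the authors' deposited table, adjusted p = 0.0506).

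**Figure D4:**
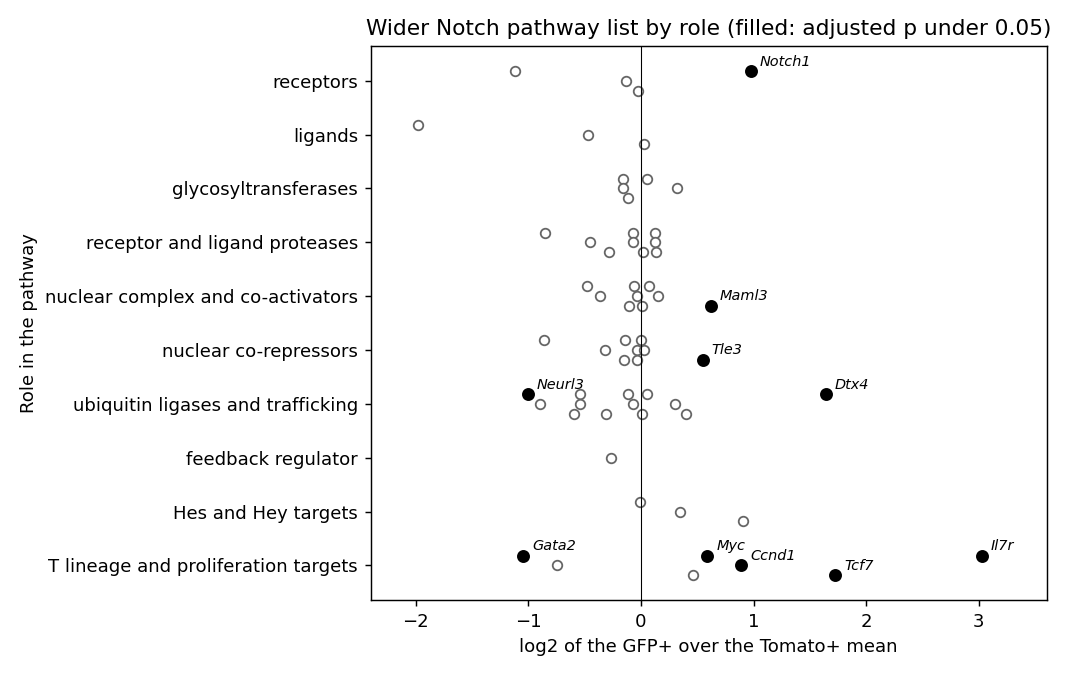
Log2 of the GFP+ over the Tomato+ mean (horizontal axis) of the 63 measured genes of the wider pathway list, 1 circle per gene, by role (vertical axis), filled and named where the authors' adjusted p is under 0.05. Most open circles lie near 0, and 5 of the 10 filled ones are in the lowest line.

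Of 7 measured T lineage and proliferation targets, 4 rose and 1 fell, beside 4.86% of all rows called higher and 2.64% called lower. Il7r, the receptor gene of interleukin-7, rose 8.16-fold, from 22.6 to 184 (the authors' deposited table, adjusted p = 3.92e-14). Tcf7, whose product starts the T lineage programme downstream of Notch1, rose 3.30-fold, from 19.7 in Tomato+ to 65.2 in GFP+ (the authors' deposited table, adjusted p = 0.000471). Ccnd1, which encodes cyclin D1 and shares 818 exon bases with a gene on the opposite strand, rose 1.85-fold and Myc, a growth regulator, rose from 1726 to 2594, per the authors' deposited table. Gata2, a stem cell regulator that Notch is known to induce during the emergence of stem cells, fell 2.06-fold, from 1371 to 665 (the authors' deposited table, adjusted p = 5.83e-13). Gata3 and Il2ra, both of early T cells and both picked with their values known, did not pass, with log2 differences of -0.75 and 0.47, per the authors' deposited table. Several of these genes were already known to differ in these data when the list was written. Neither their number of calls nor their direction is thus independent evidence about the pathway.

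Markers of other cell types differed between the fractions and stand beside these values. Over all rows, 4.86% were called higher and 2.64% lower in GFP+. In bulk RNA, fewer cells of a type and less RNA per cell cannot be told apart. Of 14 endothelial markers, all measured, 10 fell and 0 rose, with a median log2 of -1.16, and the sum of their means was 2876 in GFP+ against 5116 in Tomato+. The lower means of Notch4 and Dll4 in GFP+ go with this list, some of whose genes, such as Tie1, stem cells express too. Tie1 was at 590 in GFP+ against 1389 in Tomato+ and Kdr at 25.0 and 105 in the authors' deposited table, and both were called. Cdh5, at 88.7 and 147, was not called. Nor were Pecam1, Emcn and Flt1, with log2 differences of -0.21, -0.22 and 0.0036. The lowest overall mean in the list was 28.5, so none of these markers was at 0. The part of the endothelial genes in the Notch4 and Dll4 values was not tested.

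Other lists were higher in GFP+, as Notch1 was, beside 4.86% of all rows called higher and 2.64% called lower. Macrophage markers rose in 8 of 9 cases and summed to 1405 in GFP+ against 417 in Tomato+. Erythroid markers rose in 7 of 8 cases, Rhag by only 1.11-fold, and summed to 36982 and 11065. Most of both erythroid sums came from the globin genes Hba-a2, at 16122 and 4190, and Hbb-b1, at 15589 and 4780. Hepatoblast markers rose in 7 of 9 cases and summed to 3830 and 2147. B lineage markers rose in 4 of 7 cases, with sums of 556 and 237 and a median log2 of 3.05. Most of the Tomato+ sum came from Cd79b, at 269 in GFP+ and 207 in Tomato+, which was not called. Of 8 T lineage markers 2 had a row, Lck and Cd4. Lck, a kinase of the T cell receptor pathway, rose from 78.7 to 157, and Cd4, with a log2 of 0.60, was not called, per the authors' deposited table. Megakaryocyte markers fell in 6 of 8 cases and summed to 471 in GFP+ against 1726 in Tomato+. The part of these cell types in the Notch1 difference was not tested.

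**Figure D5:**
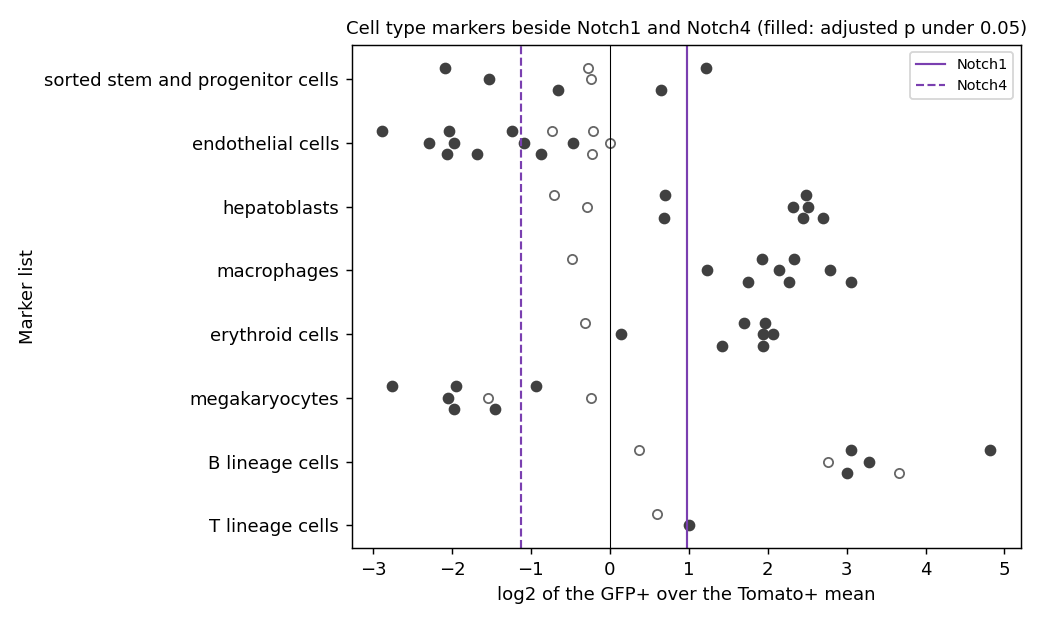
Log2 of the GFP+ over the Tomato+ mean (horizontal axis) of the measured markers of 8 cell types (vertical axis), filled where the authors' adjusted p is under 0.05, with lines at the log2 of Notch1 (0.98) and Notch4 (-1.12). Endothelial and megakaryocyte markers lie mostly left of 0, and macrophage, erythroid, hepatoblast and B lineage markers mostly right.

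For the surface profile itself, Kit was at 4087 in GFP+ against 4950 in Tomato+ and Ly6a, which encodes Sca1, at 59.5 and 70.1, and neither passed, per the authors' deposited table. The CD150 gene Slamf1 fell from 119 to 27.9 although both fractions were sorted as CD150+, and Flt3 rose 2.32-fold, from 1617 to 3753, in the authors' deposited table.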

How the data were processed

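RNA of sorted fetal liver cells was measured in 4 GFP+ and 4 Tomato+ libraries (NEBNext Ultra kit, per the labels' protocols). The authors deposited 1 table with mean normalized counts (a signal, the baseMean) over all libraries and over each fraction. It also holds a ratio (fold change) with its log2, plus p-values before and after adjustment, per the file headers. The submitters' processing notes name build mm9 and DESeq, bedtools, TopHat, TopHat2 2.0.11 and Bowtie2 2.2.1. The sources used here give no settings, strand handling or depth per library. A repeated header line was dropped.

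The authors' fold runs from GFP+ to Tomato+. Here its sign was turned, so that positive means higher in GFP+. A symbol was read from its row with the highest mean, and a gene was called at an adjusted p under 0.05, adjusted by the authors over all 14268 rows. The step that counts calls was run on simulated p-values, with those of changed rows set very low. That checks the code only and not the authors' calls. The deposited adjusted p-values equalled a Benjamini-Hochberg adjustment over all rows within 5.3e-08 (pandas 2.3.3, Python 3.11.15). Without values per library, the planned count test was replaced by the authors' comparison.

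Members, lists and rules were chosen with earlier results of these data known. Genes named by rule were the 10 members, the other called genes of each role and, where a role had none, its gene with the smallest p outside the members. Other genes of the wider list are said in the text to be named with their values known. Adgre1 of the marker lists and Eogt of the further regulators were matched through older symbols.

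GENCODE M21 exons of opposite-strand transcripts overlap Notch1, Notch3 and Nrarp, by 2051 bases for Nrarp, and also Ccnd1 (818 bases, with a protein-coding gene), Hes5 (433), Dll4 (214), Gata3 (155) and Furin (113). With no strand handling stated, reads of such pairs cannot be told apart. Notch2 shares 541 exon bases with a transcript annotated on its own strand, and reads of that transcript may be counted in.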

Additional observations from a re-analysis of the deposited data

How the results depend on the processing

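No paired analysis was possible because only the authors' means per fraction were at hand, and for the same reason other size factors and leaving out single libraries were not run. The call of Notch1 held at adjusted p thresholds of 0.1 and 0.01, with a minimum mean of 50 normalized counts and with a Bonferroni adjustment, and a minimum absolute log2 of 1, just above its 0.98, left 0 called members. For the wider list, 10 calls became 5 under that minimum change, 5 under Bonferroni and 5 on leaving out the T lineage and proliferation targets, an alternative chosen after seeing the data. Each of these follows from a stricter criterion or a shorter list. Other settings gave 9 to 12 calls. Scaling both fractions to the same total lowers every log2 by 0.16, and subtracting the median log2 of rows at or above that minimum mean lowers it by 0.03. With equal totals Jag1 turned from 0.03 to -0.13, Mfng to -0.10 and Rbpj to -0.15, and with centring Jag1 turned to -0.0014 and Rbpj to -0.024, since the shift exceeds their difference. With a pseudocount of 10 none turned. These values were recomputed for 41 of the genes named here and not for every marker. Rhag, called higher at a log2 of 0.15, and Flt1, at 0.0036, were not among the 41. Both differences are smaller than the shift of equal totals, and that of Flt1 is also smaller than the shift of centring.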

Other observations

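Further regulators of the pathway were listed after values of the genes above had been seen. Of 19 such genes with a row, 2 rose and 0 fell in GFP+. That is 10.5% of them, not far from the 7.49% of all rows that passed. Egfl7, a secreted protein of endothelium and stem cells that can bind Notch receptors, rose 1.30-fold, from 1337 to 1736 (adjusted p = 0.0231, the authors' deposited table). Ikzf1, which encodes Ikaros and is known to restrain Notch target genes in T cell precursors, rose 1.43-fold, from 2646 to 3791 (adjusted p = 0.00156, the authors' deposited table). Dlk1, a non-canonical ligand gene that fetal hepatoblasts also express, had levels of 811 and 993, a log2 of -0.29 that did not pass (adjusted p = 0.311, the authors' deposited table). Cdk19, of the kinases that mark the Notch intracellular domain for turnover, had a log2 of 0.33 and an adjusted p of 0.10 in the authors' deposited table.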
